A study of Mus musculus with 617 samples.

Results

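Mouse embryonic stem (ES) cells grown in serum and leukaemia inhibitory factor (LIF) are described here gene by gene and cell by cell. They were taken by their column names in the deposited table of ES cells, epiblast stem cells and neurons, and number 120 of the 447 cells in that table and of the 617 cells in the series. Of these, 68 came from a female ES line and 52 from a male ES line, each the cross of a male CAST/EiJ with a female C57BL/6J mouse. The same table holds the same lines in 3 other states. ES cells in 2i (inhibitors of the kinases MEK and GSK3) with LIF number 60 female and 51 male cells. Epiblast stem (Epi) cells kept in Activin A and FGF2 number 79 and 63. Cells taken through embryoid bodies with retinoic acid and the smoothened agonist SAG toward motor neurons and interneurons number 39 and 35. The cells of 1 line in 1 state are taken here as 1 culture. Whether the runs of title numbers described below were separate cultures is not known. Each sex is 1 line, and no group carries an engineered allele. Culture and line cannot be told apart within a state, so p-values measure only the spread between these cultures.

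ES cells are the cultured counterpart of the early epiblast. LIF acts through the transcription factor Stat3 and holds the cells in self-renewal, while FGF signalling through the kinase ERK moves them toward differentiation. The 2i inhibitors block ERK and release the Wnt pathway from GSK3. Serum leaves ERK active, and cells in serum are known for passing back and forth between a naive state, with the factors Nanog, Zfp42 (Rex1) and Esrrb, and a state nearer to the later, primed epiblast.

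The state label was set against 5 marker genes. Pou5f1 (Oct4), the factor that all pluripotent cells need, ranged over 67.1, 488 and 1154 FPKM (lowest, median and highest cell) in the female serum culture and over 277.6, 620 and 1410 FPKM in the male one. FPKM is fragments per kilobase of transcript, scaled to the fragments mapped in the cell, and so a level per transcript length. Every serum cell held Pou5f1, and cells in 2i covered overlapping values. Zfp42, a naive marker, ranged over 0, 50.3 and 368 FPKM in female and 0.987, 58.3 and 347.1 FPKM in male serum cells. Etv4, an ERK-induced factor, ranged over 0, 21.6 and 85.7 FPKM and over 0, 29.3 and 107 FPKM, and Cldn6, a tight junction protein, over 0, 21 and 413 FPKM and over 0, 21.3 and 232 FPKM. Otx2, a factor of the primed epiblast, reached 1 FPKM in only 57.4% of female and 51.9% of male serum cells. All 5 markers were present in both cultures, with Otx2 missing from many single cells.

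The 2 genes whose spread among serum cells the results turn on, Nanog and Zfp42, are shown first by their promoters. Each line gives the 250 bases before the start site, 5′ to 3′ on the gene's strand, from RefSeq (GRCm38.p6). Capitals mark the letters TTTGCAT, the core of the octamer that POU factors such as Oct4 bind. The Nanog stretch is chr6:122707315-122707564 on the plus strand and the Zfp42 stretch chr8:43307010-43307259 on the minus strand.
Nanog: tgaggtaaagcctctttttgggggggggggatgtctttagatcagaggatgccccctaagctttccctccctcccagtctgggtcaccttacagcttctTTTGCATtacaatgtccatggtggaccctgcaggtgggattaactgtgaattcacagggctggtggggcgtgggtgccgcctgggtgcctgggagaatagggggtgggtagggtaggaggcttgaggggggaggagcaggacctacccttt
Zfp42: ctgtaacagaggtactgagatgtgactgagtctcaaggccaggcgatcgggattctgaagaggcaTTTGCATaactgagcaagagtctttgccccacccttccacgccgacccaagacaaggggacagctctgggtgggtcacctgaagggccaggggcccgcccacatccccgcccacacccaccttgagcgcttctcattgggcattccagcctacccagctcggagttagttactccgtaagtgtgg
The match began at -151 in Nanog and at -185 in Zfp42. TTTGCAT on either strand occurred in 4.63% of the 32851 promoters of 300 bases in the same table. Of the 26 genes with a higher spread in serum that had a promoter there, 2 held it, namely these.

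Per serum cell a median of 9443.5 (female) and 9645 (male) genes reached 1 FPKM. The medians were 10400 and 10393 in 2i, 10409 and 9355 in Epi, and 9313 and 9234 in motor neuron cultures. Read depth is unknown, since the table holds no counts. Of the 15504 genes averaging at least 1 FPKM over the cultures, 7 (0.0451% of those tested) were at least 2-fold above every other culture in both serum cultures, on the log2(mean FPKM + 1) scale used for every fold below, against 0.948% for 2i, 0.232% for Epi and 14.3% for motor neuron cultures.

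Male serum cells fell into separate runs of numbers in their titles, which the labels do not explain. They carried 1 to 15 (13 cells) or numbers well above 89 (39 cells). Female numbers went on from 88 to 89 without a gap. They were split there into 66 to 88 (22 cells) and numbers from 89 (46 cells), after the values were seen. Female differences across that boundary, and counts that need both lines, may therefore partly follow from how it was drawn. The parts of both lines are called runs below. Of 7658 genes with at least 5 FPKM in both serum cultures, 194 (2.53%) were at least 2-fold higher in the lower-numbered cells of both lines and 2.06% in the higher-numbered cells of both. The smooth muscle actin gene Acta2 averaged 85.8 FPKM in the lower and 2.3 in the higher female run, and 82.5 and 0.478 FPKM in the male runs. Lysozyme gene Lyz2 averaged 27.7, 0.0223, 64.8 and 0 FPKM in the same order, and the collagen gene Col1a1 averaged 5.4, 0.303, 5.83 and 0.127 FPKM. Over a list of 10 feeder fibroblast genes, 5 of 22 and 3 of 13 lower-numbered cells held at least 3 genes at 10 FPKM or more, against 0 of 46 and 0 of 39 higher-numbered cells and 0 of 60 and 0 of 51 cells in 2i. The summed level of that list had medians of 27.6, 0.541, 20.1 and 0 FPKM. The part of the runs in any result below was tested only where a value without one of them is given.

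**Figure D1:**
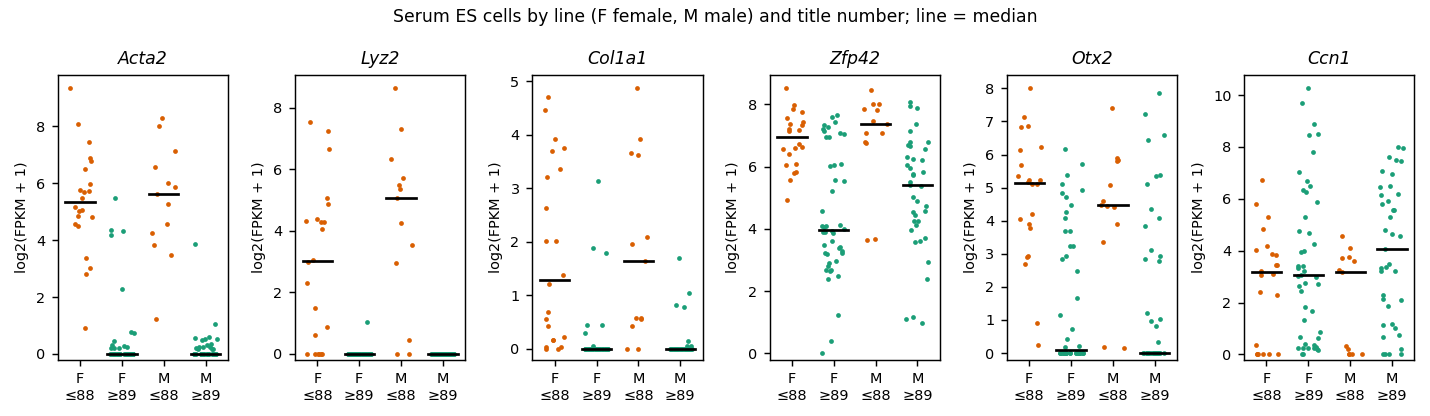
Single serum ES cells by line and by the number in the title (orange, up to 88, 22 female and 13 male cells; green, from 89, 46 and 39 cells), on a log2(FPKM + 1) axis with the median as a bar. Acta2, Lyz2 and Col1a1 lay near 0 in the green cells, and Zfp42 and Otx2 had lower medians there.

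Some naive factors also differed between the runs. Zfp42 averaged 134.7 and 49.4 FPKM in the lower and higher female runs and 166.2 and 63.4 FPKM in the male ones. Nanog averaged 172.5 and 55.7 FPKM in female and 222 and 60.1 FPKM in male cells, and Dppa3 (Stella), a maternal factor of the early embryo, 191.1 and 65.7 FPKM and then 190.9 and 54 FPKM. By the share of cells below 10 FPKM, Klf4 and Gbx2 did not share this in both lines. Klf4 was that low in 16 of 22 lower-numbered and 35 of 46 higher-numbered female cells, and 9 of 13 and 24 of 39 male cells. Gbx2 was in 18 of 22 and 30 of 46, then 5 of 13 and 16 of 39. Otx2 stood higher in the lower-numbered cells, at 50.7 against 8.63 FPKM and 36.8 against 19.4 FPKM. In the higher-numbered cells lay Stra8, a gene induced at the onset of meiosis (8.8 and 73.5, then 7.7 and 151.01 FPKM), and the ERK phosphatase gene Dusp6 (19.4 and 48.1, then 24.3 and 59 FPKM). Cldn6 went with these (29.5 and 59.5, then 31.6 and 53.7 FPKM). Otx2 thus followed Zfp42, Nanog and Dppa3 between runs of both lines, and Cldn6 did not.

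Other cell types the cultures could hold were looked for with further lists. No serum cell held 3 or more primitive endoderm, primitive streak or neural progenitor genes at 10 FPKM. For trophoblast genes 5 of 68 female and 5 of 52 male serum cells did so, against 2 of 60 and 42 of 51 in 2i. For neuron genes 9 of 68 and 8 of 52 serum cells did so, against 5 of 60 and 1 of 51 in 2i, and 20 of 39 and 26 of 35 in motor neuron cultures. 1 male cell held 5 genes of the 2-cell-like state at 10 FPKM or more, with a summed level of 197 FPKM. That cell was among the lower-numbered ones. The highest of the higher-numbered male cells reached 12.5 FPKM and the highest female cell 3.77 FPKM.

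The first comparison set serum against 2i, the same lines under free against blocked ERK signalling. A gene was called where limma's moderated test on log2(culture mean FPKM + 1) gave a Benjamini-Hochberg adjusted p under 0.05 and the log2 difference was at least 1. Across the 15504 genes, 1 was called higher in serum (0.00645%) and 2 lower (0.0129%), while 1549 had an unadjusted p under 0.05. The fit over 8 culture means had 4 residual degrees of freedom. Counts of listed genes that differed in both lines are therefore given beside those over all genes, of which 606 (3.91%) were at least 2-fold higher and 661 (4.26%) at least 2-fold lower in both lines. The median difference over all genes was 0.00.

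Cldn6 was the gene called higher. Its cells in 2i ranged over 0, 0 and 20.6 FPKM (female) and 0, 1.31 and 31.6 FPKM (male), so that most serum cells lay above most 2i cells, with overlap. It rose by a log2 difference of 3.41 (SE 0.25, limma, adjusted p = 0.0284), and pairing the cultures by line gave an adjusted p of 0.0763. The call held under 13 of its 22 alternative settings. Without the male 2i or the male serum culture no gene was called, and 38 were without either Epi culture. The pair called lower were Crxos, a homeobox gene (62.1 and 77 FPKM in 2i, 0.593 and 0.258 FPKM in serum), and Srarp (32.4 and 48.9 FPKM in 2i, 0.302 and 0.450 FPKM in serum). Crxos fell by 5.63 on the log2 scale (SE 0.31, adjusted p = 0.0149) and Srarp by 4.89 (SE 0.34, adjusted p = 0.0284), both with an adjusted p of 0.0763 when paired by line. Each was below 1 FPKM on average in both serum cultures.

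Genes induced by ERK, or feeding back on it, were mostly higher in serum. Of 16 listed genes tested, 13 were higher in both lines and 1 lower, 9 were at least 2-fold higher in both, and the median log2 difference was 1.48, or 0.55 in cells numbered up to 88 and 1.65 in those from 89. None passed the test over all cells. Etv4 ranged over 0, 0 and 7.2 FPKM in female and 0, 0 and 21.5 FPKM in male 2i cells, against the serum values above. Its log2 difference was 3.67 (SE 0.32, limma, adjusted p = 0.0529). Dusp6 ranged over 0, 15.9 and 366 FPKM in female and 0, 41.9 and 401 FPKM in male serum cells, and averaged 1.05 and 1.84 FPKM in 2i. Its log2 difference was 4.23 (SE 0.50, limma, adjusted p = 0.064). In the cells numbered from 89 alone, both passed, each with an adjusted p of 0.0255. Other feedback genes differed in size. Spry4, an inhibitor of receptor kinase signalling, averaged 0.449 and 0.997 FPKM in 2i and 4.92 and 8.1 FPKM in serum, whereas its relative Spry2 averaged 88.5 and 93.7 against 75.9 and 82.1 FPKM. Etv5, a close relative of Etv4, averaged 31.5 and 29.4 FPKM in 2i and 25.1 and 44.9 FPKM in serum, so the lines did not share a direction.

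Immediate early genes, which switch on within minutes of a growth factor, made a like list that shares Egr1 and Fos with the ERK list. In it 6 of 7 were higher in both lines and 4 at least 2-fold, with a median of 1.48. Egr1 averaged 0.049 and 0.316 FPKM in 2i and 6.22 and 40.3 FPKM in serum (log2 difference 3.88, SE 1.25, limma, adjusted p = 0.347). Within serum Egr1 varied with the run, at 3.16 and 7.69 FPKM in female and 2.27 and 53 FPKM in male cells.

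Primed epiblast genes were higher in serum, with 8 of 10 higher in both lines, none lower, 6 at least 2-fold higher and 1 (Cldn6) called. The median was 1.59. Otx2 ranged over 0, 6.27 and 258.3 FPKM in female and 0, 1.18 and 233 FPKM in male serum cells, and averaged 0.814 and 0.413 FPKM in 2i. Its log2 difference was 3.90 (SE 0.82, limma, adjusted p = 0.165). The de novo DNA methyltransferases, which set methylation as the epiblast leaves the naive state, had large differences. Dnmt3a averaged 16.1 and 15 FPKM in 2i and 157.2 and 260 FPKM in serum, a log2 difference of 3.62 (SE 0.72, limma, adjusted p = 0.151). Dnmt3b averaged 14.7 and 9.79 against 62.8 and 87.5 FPKM, and their cofactor Dnmt3l 5.89 and 8.58 against 196 and 118.5 FPKM. The maintenance enzyme Dnmt1 and its partner Uhrf1 went the other way, from 33.2 and 34.4 to 20.8 and 30.3 FPKM and from 92.8 and 104.6 to 38.3 and 58.4 FPKM. Fgf5, a later epiblast gene, reached 1 FPKM in 13.2% of female and 11.5% of male serum cells. No gene of the DNA methylation list passed the test.

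Naive pluripotency genes lay lower. Of 15 tested, 12 were lower in both lines and 1 higher, 8 were at least 2-fold lower in both, and the median was -1.26, with none called. Tfcp2l1, a target of LIF signalling, ranged over 31.5, 66 and 159.4 FPKM in female and 38, 69.5 and 260.7 FPKM in male 2i cells. In serum it ranged over 0, 3.53 and 25.4 FPKM and over 0, 3.26 and 32.3 FPKM. No serum cell of either line reached the lowest 2i cell of its line. The log2 difference was -3.56 (SE 0.74, limma, adjusted p = 0.163, and 0.0499 with the Epi cultures left out). Klf4 averaged 32.4 and 31.6 FPKM in 2i and 8.74 and 8.95 FPKM in serum (log2 difference -1.74, SE 0.52, adjusted p = 0.297). Nanog averaged 278.4 and 293.1 against 93.5 and 100.5 FPKM (-1.55, SE 1.05, adjusted p = 0.758), and Zfp42 115.5 and 125.8 against 77 and 89.1 FPKM (-0.54, SE 1.72, adjusted p = 1). For Zfp42 the cells numbered up to 88 gave a difference of the other sign, 0.37. Using each culture's mean of the log values in place of the log of its mean, 4 naive genes were called lower. Over all 15504 genes that setting called 213 lower, against 2 in the main fit.

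Targets of Wnt signalling, which the GSK3 inhibitor switches on, had a median of -2.44. Of 11, 10 were lower in both lines and none higher, and 7 were at least 2-fold lower in both, with none called. Sp5 averaged 36.4 and 44.5 FPKM in 2i and 0.00362 and 0.483 FPKM in serum, with a log2 difference of -5.08 (SE 1.37, limma, adjusted p = 0.262). Its highest female serum cell reached 0.246 FPKM and its highest male one 21.2 FPKM. Axin2, a feedback inhibitor, averaged 16.7 and 16.3 against 0.560 and 1.59 FPKM (-3.12, SE 0.63, adjusted p = 0.152), and Cdx1, a homeobox gene, 20 and 31 against 0.806 and 1.06 FPKM (-3.75, SE 0.50, adjusted p = 0.0778). The streak gene T (Brachyury), also a Wnt target, averaged 20.2 and 23.9 against 0.728 and 0.816 FPKM. Mean log values gave 4 Wnt targets called lower, among 213 of all 15504 genes.

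Core pluripotency factors were mixed. Of 12 core genes, 6 were higher and 3 lower in both lines, 3 (Utf1, Dppa4 and Tdgf1) were at least 2-fold higher in both and none lower, and the median was 0.16, with none called. Pou5f1 averaged 671 and 742 FPKM in 2i and 493 and 645 FPKM in serum (-0.32, SE 1.55, limma, adjusted p = 1), Sox2 37.6 and 20.7 against 26.4 and 29.7 FPKM, and Sall4 97.4 and 85.5 against 89.5 and 94.6 FPKM. Utf1, a chromatin factor of pluripotent cells, averaged 79.8 and 103.9 against 567 and 718 FPKM (2.79, SE 2.06, adjusted p = 0.789). LIF targets (8 genes, median -0.04), BMP and Id genes (8, -0.11), G1/S genes (12, -0.05) and G2/M genes (12, 0.08) had medians close to that over all genes. Nodal pathway genes had a median of 0.43 over 8, and the Nodal antagonist Lefty2 averaged 112.2 and 111.3 FPKM in 2i and 33.4 and 43.5 FPKM in serum.

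Germline genes, many of which are held silent by promoter methylation in somatic cells, were higher in serum in both lines for 8 of 10, with 6 at least 2-fold higher, none lower and a median of 1.43. Mael, which guards germ cells against transposons, averaged 0.721 and 1.2 FPKM in 2i and 15 and 14.5 FPKM in serum (3.02, SE 1.18, limma, adjusted p = 0.46). Sycp3, a protein of the meiotic chromosome axis, averaged 1.69 and 4.45 against 17.3 and 18.4 FPKM. The RNA helicase gene Ddx4 averaged 1.42 and 2.27 against 5.63 and 8.0 FPKM. Stra8, not on the list and higher in the higher-numbered serum cells, averaged 0.183 and 3.97 against 52.6 and 115.2 FPKM. Imprinted genes had a median of 0.58 over 15, and amino acid stress response genes 0.43 over 11. The feeder fibroblast list had a median of 1.02 over 6, which was 2.29 in the cells numbered up to 88 and 0.23 in those from 89. The naive list gave -0.76 and -1.38 in the same cells, the immediate early list 0.89 and 1.49, and the imprinted list -0.11 and 0.85. Averaging log values moved the medians to -2.17 for naive genes, -1.88 for Wnt targets, 0.86 for primed, 0.81 for ERK, 0.89 for germline, 0.79 for immediate early, 0.29 for feeder and 0.20 for imprinted genes.

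**Figure D2:**
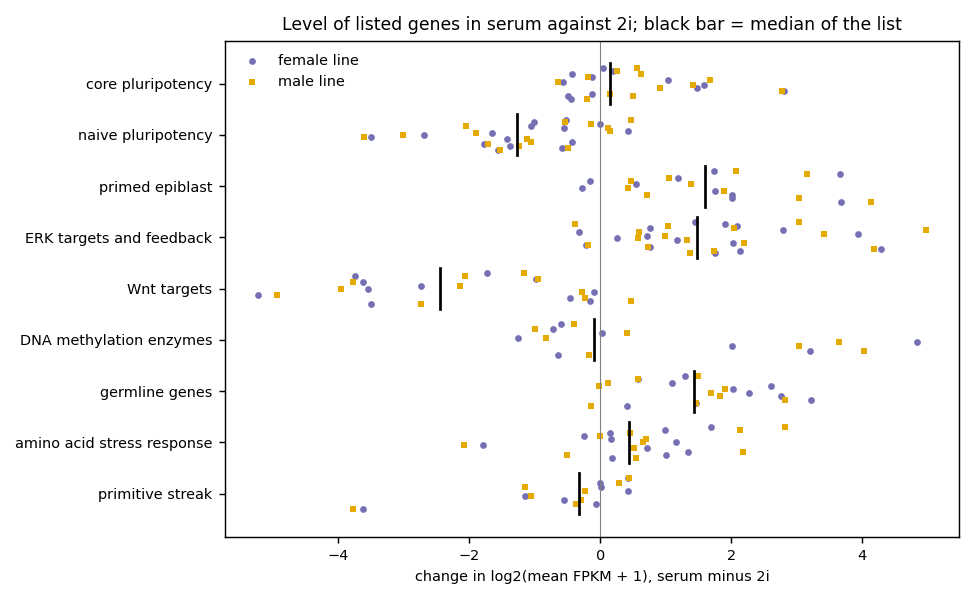
Each point is 1 gene in 1 line, at its serum minus 2i difference in log2(mean FPKM + 1), for 9 lists (female line circles, male line squares, black bar the median of the list). Primed, ERK and germline genes lay mostly right of 0, and naive genes and Wnt targets mostly left, with medians of 1.59, 1.48, 1.43, -1.26 and -2.44.

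The 7 genes highest in serum among all states were lower in every other culture. Tuba3b, a tubulin, averaged 1.4 and 1.39 FPKM in 2i and 9.88 and 9.69 FPKM in serum. Cox8c, a subunit of cytochrome oxidase, averaged 0.757 and 0.458 against 5.88 and 5.27 FPKM. Tex11, an X-linked gene of meiosis, averaged 0.685 and 1.04 against 4.78 and 4.43 FPKM, Usp26, a deubiquitinase gene on the X, 0.342 and 0.125 against 5.62 and 5.35 FPKM, and Calml4 3.67 and 3.69 against 16.8 and 14.9 FPKM. The other two were Lyz2 (0 in 2i, 8.98 and 16.2 FPKM in serum) and Sprr2k (0 in 2i, 6.38 and 7.98 FPKM in serum). In the higher-numbered serum cells Lyz2 averaged 0.0223 and 0 FPKM, and Sprr2k 0 FPKM in both lines. Others also varied with the run: in the lower and higher female runs Tuba3b averaged 24.1 and 3.06 FPKM and Usp26 12.3 and 2.44 FPKM, and in the male runs Cox8c averaged 0 and 7.03 FPKM.

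The Epi cultures, the primed state of the same lines, formed the second comparison. Over all genes 1 was called higher in serum (0.00645% of those tested) and 5 lower (0.0322%), while 1000 had an unadjusted p under 0.05. The gene called higher was Gm42418, a noncoding locus at a ribosomal RNA repeat (chr17:39846958-39848788, GRCm38, plus strand), at 51124 and 59381 against 1809 and 1723 FPKM (4.96, limma, adjusted p = 0.0086). Of the 5 lower, 3 were ribosomal RNA genes or the noncoding neighbour of Gm42418, Gm26917 (chr17:39843013-39846341). The ribosomal RNA gene n-R5-8s1 averaged 424 and 392 against 5257 and 8176 FPKM and fell by 4.00 (SE 0.26, adjusted p = 0.0108). Gm24601 averaged 218 and 196 against 3424 and 5245 FPKM, and Gm26917 170 and 246.2 against 3353 and 3386 FPKM. The last pair, Mir6928 and Mir6986, are short precursors; Mir6928 was 0 in all serum cells. None of these is a pluripotency gene. No gene was called when any 1 serum or 2i culture was left out, and 337 and 77 were without the female and the male Epi culture. The level of Gm42418 also differed between serum runs (24849 and 63690 FPKM in female, 23667 and 71285 FPKM in male cells).

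Listed genes were again read as counts. Over all genes 1.13% were at least 2-fold higher and 2.55% at least 2-fold lower in serum than in Epi in both lines, and the median was -0.12. Naive genes were higher in both lines for 10 of 15 and lower for 1, with a median of 1.91 and 1 gene at least 2-fold higher in both. All 8 streak genes were lower in both lines, 5 at least 2-fold, with a median of -3.62. Germline genes were higher for 8 of 10, with a median of 1.68, and primed genes lower for 7 of 10 and higher for 1, with a median of -0.78. None of these was called.

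The Epi cultures themselves differed by line. The mesendoderm factor Mixl1 averaged 3.5 (female) and 576 FPKM (male) in Epi, T 2.2 and 153.8 FPKM, and Eomes 3.9 and 45.2 FPKM, while all 3 were under 1 FPKM in both serum cultures. Zfp42 averaged 72.5 and 0.0687 FPKM and Pou5f1 1116 and 316.7 FPKM there. Otx2 averaged 30.8 and 172.7 FPKM in Epi, against 22.2 and 23.7 FPKM in serum. Cldn6 and Etv4 were closer, at 81.8 and 102.3 FPKM and at 25.7 and 22.7 FPKM in Epi, against 49.8 and 48.2 FPKM and 26.4 and 31.8 FPKM in serum. Serum levels of streak genes thus lay below both Epi cultures, and serum Zfp42 lay above both over all cells. In the higher-numbered serum cells alone Zfp42, at 49.4 and 63.4 FPKM, lay below the female Epi mean.

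Against motor neuron cultures 419 genes were called higher in serum (2.7%) and 4669 lower (30.1%), 4.72% and 30.1% were at least 2-fold higher and lower in both lines, and the median over all genes was -0.71. That split depended on the scaling. With upper-quartile scaling of the culture means 1597 were higher and 2054 lower, with a median of 0.01. With every cell rescaled to the same sum these were 971 and 2166, with a median of -0.14. Core pluripotency genes had 4 called higher and none lower (median 4.04), naive genes 3 and 1 (2.74), primed genes 5 and 2 (1.57) and Nodal genes 3 and 1 (2.87). All 8 neuron genes, all 9 primitive endoderm genes and 10 of 15 imprinted genes were called lower, the last of which became 4 with upper-quartile scaling. G1/S genes had 3 of 12 called higher and G2/M genes 0 of 12, which became 8 and 11 with that scaling. The neuropeptide gene Cartpt averaged 0.0255 and 0 FPKM in serum and 2014 and 3068 FPKM in motor neuron cultures. These cultures also held cells with genes of other types. At least 3 primitive endoderm genes reached 10 FPKM in 18 of 39 female and 29 of 35 male cells there. For trophoblast genes the counts were 29 of 39 and 23 of 35.

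The genes with the largest rise over motor neuron cultures included precursor genes of the miR-290 cluster, the main microRNAs of naive ES cells. Their values are reads on the short precursor gene, not mature molecules. Mir295 averaged 3691 and 1977 FPKM in serum, 2366 and 2168 FPKM in 2i and 58.7 and 0 FPKM in motor neuron cultures, and was detected in 72.1% and 53.8% of serum cells. Mir294 averaged 629 and 380 against 30.2 and 0 FPKM, and Mir293 474 and 390 against 8.02 and 0 FPKM. Mir363, on the X chromosome, averaged 1071 and 866 against 100.7 and 0 FPKM. The mature 3p sequences of these precursors, from RefSeq (GRCm38.p6), are given with the seed (bases 2 to 8) in capitals.
miR-293-3p: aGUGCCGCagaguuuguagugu
miR-294-3p: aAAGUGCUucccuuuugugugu
miR-295-3p: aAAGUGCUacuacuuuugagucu
miR-363-3p: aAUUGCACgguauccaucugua
miR-293-3p lies at chr7:3220390-3220411, miR-294-3p at chr7:3220691-3220712 and miR-295-3p at chr7:3220815-3220837, all on the plus strand, and miR-363-3p at chrX:52741697-52741718 on the minus strand. miR-294-3p and miR-295-3p share the seed AAGUGCU.

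Spread among cells was measured as the squared coefficient of variation (CV, SD over mean) on a log2 scale, less the value usual for genes of the same mean in that culture. In the planned test over all 8 cultures a gene needed 10 FPKM everywhere, which left out most pluripotency genes, and 3 of 4608 genes (0.0651%) were called more spread in serum than in 2i and 3 (0.0651%) less. Those more spread were the glucose transporter gene Slc2a1 (2.85), the glycolytic enzyme gene Aldoa (2.55) and Id1, a BMP target (2.31), each with an adjusted p of 0.0437 by limma. With the title-number runs kept apart these became 0.0149 for Slc2a1, 0.123 for Aldoa and 0.0699 for Id1. Those less spread were Gm42418 (-3.77), mt-Rnr2, the mitochondrial large ribosomal RNA (-2.85), and the pseudogene Gm8186 (-2.39), none of them called with the runs kept apart. No gene was called against Epi by this test. A fit over the 4 ES cultures alone, chosen after the data were seen, took 5178 genes. It called 38 (0.734%) more spread in serum and 11 (0.212%) less.

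Nanog had the largest difference of the 38. In 2i it ranged over 168.7, 263.6 and 485 FPKM in female and 119.005, 287 and 496 FPKM in male cells. In serum it ranged over 0, 37.4 and 644 FPKM and over 0, 64.3 and 838 FPKM, so serum cells lay both below the lowest and above the highest 2i cell. The CV was 0.229 and 0.277 in 2i and 1.34 and 1.39 in serum. The difference in excess log2(CV²) was 2.97 (SE 0.356, limma, adjusted p = 0.015). With the runs kept apart, it was 2.88 (adjusted p = 0.007). Cells numbered up to 88 alone gave an adjusted p of 0.104 and cells from 89 alone 0.0051.

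Zfp42 showed the same pattern, over 57.4, 115.5 and 187.2 FPKM and 55.1, 128.8 and 226.6 FPKM in 2i and the wider serum ranges above. Its CV was 0.256 and 0.257 in 2i and 1.02 and 0.982 in serum, a difference of 2.61 (SE 0.328, limma, adjusted p = 0.015), or 2.77 within runs (adjusted p = 0.007). Cells numbered up to 88 gave an adjusted p of 0.284.

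**Figure D3:**
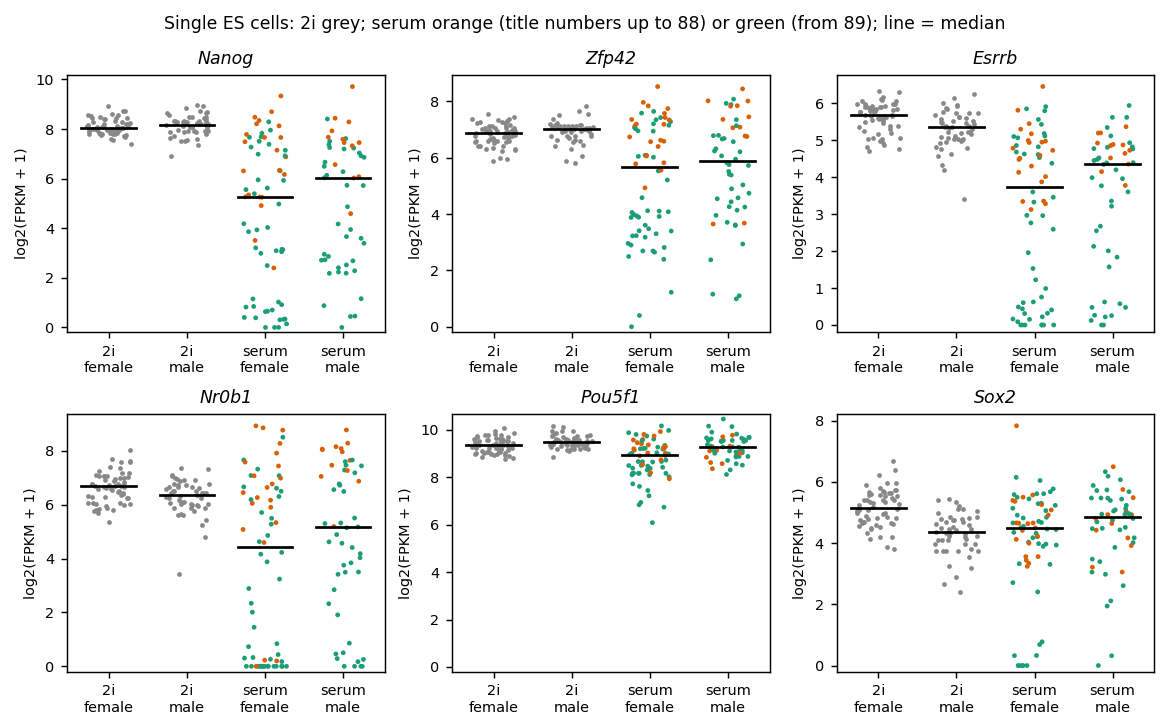
Single ES cells of both lines on a log2(FPKM + 1) axis for 6 genes: 2i cells in grey, serum cells in orange (title numbers up to 88) or green (from 89), bar the median. Nanog, Zfp42, Esrrb and Nr0b1 formed a narrow band in most 2i cells and reached or neared 0 in serum cells, most of them green. For Esrrb and for Nr0b1, 1 male 2i cell lay below 10 FPKM. Pou5f1 was at least 67.1 FPKM in every serum cell.

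Naive genes had the highest median difference in spread among the lists with at least 10 genes in the test. Of 10, 5 were called more spread in serum (7 with runs kept apart), 9 were higher in both lines, and the median difference was 2.14, against -0.06 over all genes. Besides Nanog and Zfp42 these were Klf5 (2.04), Gbx2 (2.45) and Nr0b1 (Dax1), an orphan nuclear receptor gene (2.45). Nr0b1 ranged over 40.2, 101.6 and 260 FPKM in female 2i cells. In male 2i, 1 of 51 cells lay below 10 FPKM. In serum it ranged over 0, 20.5 and 488 FPKM in female and 0, 35.4 and 439 FPKM in male cells. Esrrb missed the threshold over all cells (1.65, limma, adjusted p = 0.058) and passed within runs (adjusted p = 0.0232). No core gene of 11 was called, with a median of 0.66. Glycolysis genes had 2 of 13 called and a median of 1.31. Cell cycle genes had none called, with medians of 0.45 over 12 G1/S genes and 0.25 over 11 G2/M genes.

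Among the other genes of the 38, Slc2a1 ranged over 28.1, 64.7 and 165.9 FPKM in female 2i cells and over 0, 70.1 and 610 FPKM in female and 8.4, 107 and 1354 FPKM in male serum cells (2.82 in the fit over 4 cultures). Tdh, the threonine dehydrogenase on which mouse ES cells depend, ranged over 194, 391 and 744 FPKM in female 2i cells and over 0, 122.5 and 500 FPKM and 0, 148.1 and 576 FPKM in serum (2.69). Gbx2, a homeobox target of LIF, ranged over 0, 0.357 and 130 FPKM and 0, 14.9 and 468 FPKM in serum (2.45). It lay below 10 FPKM in 13 of 60 female and 6 of 51 male 2i cells, against 48 of 68 and 21 of 52 serum cells. Slc2a1 was that low in 1 of 51 male 2i cells, against 2 of 68 and 1 of 52 serum cells. The antioxidant genes Gpx4 (2.38) and Sod2 (2.12), the Wnt effector Lef1 (2.10), the AP-2 factor Tfap2c (2.26) and the muscle light chain Mylpf (2.77) were also called. Genes of this paragraph outside the lists were picked from the 38 after their values were seen. Of the 38, 36 were protein-coding, as were 89.9% of all genes in the test.

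Of the 11 genes less spread in serum, 5 were under 200 bases long, as were 6.68% of all genes in the test. Gm42418 differed by -3.84 over all cells and by 0.04 with runs kept apart, and mt-Rnr2 by -2.89 and -0.79. The runs of 2i were kept apart as well. Over all cells the CV of Gm42418 was 0.973 and 1.11 in 2i and 0.562 and 0.509 in serum. Which runs changed these values was not tested. Gsto1, a glutathione transferase gene, differed by -2.41 over all cells and by -2.30 within runs (limma, adjusted p = 0.011), while its level was 282.7 and 307.3 FPKM in 2i and 65.2 and 62.2 FPKM in serum. Keeping the runs apart called 52 genes more spread (1.01%) and 9 less (0.174%), and 30 of the former were among the 38. The count rested on the male serum culture: without it 1 gene in all was called and Nanog and Zfp42 each had an adjusted p of 0.0594. It was 25 without the female serum culture, and 1.83% and 2.14% of the genes were called without the female and male 2i cultures, against 0.946% with all 4. Pairing by line called 4.67%.

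**Figure D4:**
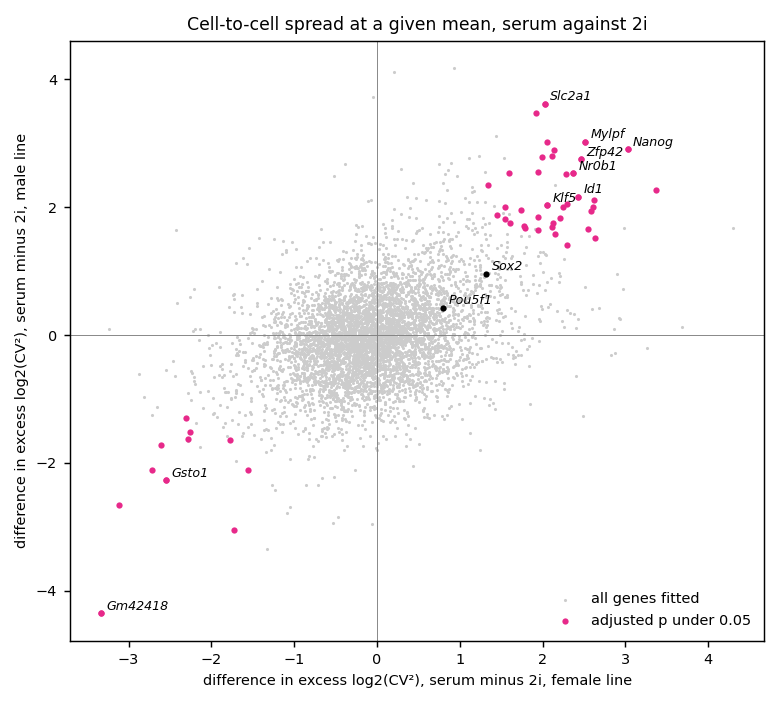
Each point is 1 of 5178 genes, at its serum minus 2i difference in excess log2(CV²) in the female (x) and male (y) line. The 38 genes called more spread lie upper right, led by Nanog at a mean difference of 2.97, the 11 called less spread lie lower left, and Pou5f1 and Sox2 (black, not called) are nearer the middle.

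The share of cells nearly without a factor was counted as cells below 10 FPKM, with exact (Clopper-Pearson) 95% intervals that cover counting error only. Among female serum cells, 25 of 68 lay below that level for Nanog (36.8%, 25.4% to 49.3%), and among male ones 17 of 52 (32.7%, 20.3% to 47.1%). In 2i it was 0 of 60 and 0 of 51. By run these were 1 of 22 and 24 of 46 female cells, and 0 of 13 and 17 of 39 male cells. Zfp42 was that low in 17 of 68 (25%, 15.3% to 37%) and 5 of 52 (9.62%, 3.196% to 21%) serum cells. Esrrb was low in 48.5% and 34.6% and Nr0b1 in 45.6% and 26.9%. Split by run, Zfp42 was low in 0 of 22 and 17 of 46 female cells, and 0 of 13 and 5 of 39 male cells. For Esrrb these were 4 of 22 and 29 of 46, then 0 of 13 and 18 of 39. For Nr0b1 they were 3 of 22 and 28 of 46, then 0 of 13 and 14 of 39. Pou5f1 was below 10 FPKM in 0 of 68 and 0 of 52 serum cells, which allows up to 5.28% and 6.85%. Cells low in naive factors thus kept Pou5f1.

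Within serum alone, 5709 genes had at least 10 FPKM in both lines and could be ordered by excess spread. Across these genes, which are not independent, the order was alike in both lines, with a Spearman rho of 0.825 (0.847 with runs kept apart). The 10 most spread were all short or noncoding genes such as Snord64, whose signal lay in 1 cell of each line. Genes under 200 bases took a median of 25.4% to 28.4% of a cell's FPKM. Among protein-coding genes of at least 200 bases, chosen after the values were seen, Rhox5, an X-linked homeobox gene, led with an excess of 5.06 and 5.55. It ranged over 0, 27.3 and 4335 FPKM in female and 0, 2.05 and 1317 FPKM in male cells. Lefty1, the Nodal antagonist, ranged over 0, 11.8 and 991 FPKM and over 0, 6.77 and 775 FPKM (excess 4.01 and 4.37). Among the 5 least spread were the ribosomal protein gene Rps3a1 (-2.87 and -2.97) and the mitochondrial import gene Tomm20 (-3.10 and -2.70). Genes were also ranked by the lower excess of the 2 lines. As percentiles of that rank, Nanog stood at 93.7, Otx2 at 93.1, Cldn6 at 92.2, Zfp42 at 91, Pou5f1 at 76.6 and Etv4 at 72.6.

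Which genes moved with which across serum cells is given as Spearman's rho over 68 female and 52 male cells, as a description: cells of 1 culture share their source, run and depth. Over 7658 genes, those most like Nanog by the lower rho of both lines included the interferon-induced membrane gene Ifitm2 (0.764 and 0.738), Sod2 (0.778 and 0.691), Nr0b1 (0.689 and 0.684) and Mreg (0.767 and 0.669). Nanog gave 0.788 and 0.631 with Esrrb and 0.768 and 0.623 with Zfp42, but 0.601 and 0.306 with Klf4, 0.147 and 0.594 with Klf5 and -0.095 and -0.076 with Gbx2, so the naive factors did not all follow it. Within the runs, Nanog and Zfp42 gave 0.683 and 0.619 in cells from 89, and 0.540 and -0.049 in the 22 female and 13 male cells up to 88. Nanog and Esrrb gave 0.686 and 0.621, then 0.708 and -0.264. With Pou5f1 it gave 0.405 and 0.065. The most opposed to Nanog were Gja1, a connexin gene (-0.710 and -0.614), Limd2 (-0.579 and -0.638) and Pclaf, a partner of the replication clamp (-0.570 and -0.581). Nanog also opposed Dnmt3a (-0.536 and -0.464) and Dnmt3b (-0.427 and -0.384). Nanog's rho with the number of detected genes was -0.174 and -0.318.

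Among primed and ERK markers the rhos were low and of both signs. Dusp6 and Etv4 gave 0.229 and 0.218, Etv4 and Cldn6 -0.325 and -0.212, Otx2 and Dusp6 -0.105 and -0.423, and Otx2 and Cldn6 -0.119 and 0.123. Nanog gave -0.461 and -0.360 with Dusp6 and -0.394 and -0.255 with Cldn6, yet 0.245 and 0.401 with Otx2, which became 0.023 and 0.285 in cells from 89. Cldn6 was most like Cldn7 (0.692 and 0.605) and Prss8 (0.590 and 0.562), both genes of epithelial surfaces, and most opposed to Jam2, another junction gene (-0.533 and -0.538), and Dppa2 (-0.568 and -0.513). Cldn6 had a rho of 0.373 and -0.050 with the number of detected genes. Zfp42 was most like Nr0b1 (0.713 and 0.759) and Zfp57, which keeps imprints methylated (0.749 and 0.708). Etv4 was most like the retinoic acid receptor gene Rarg (0.563 and 0.416), and Otx2 most like Polr2e (0.569 and 0.528, or 0.324 and 0.366 from 89). Pou5f1 was most like Ssr2 (0.536 and 0.528). Slc2a1, also called more spread, gave 0.154 and -0.075 with Nanog and 0.319 and 0.567 with Aldoa.

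**Figure D5:**
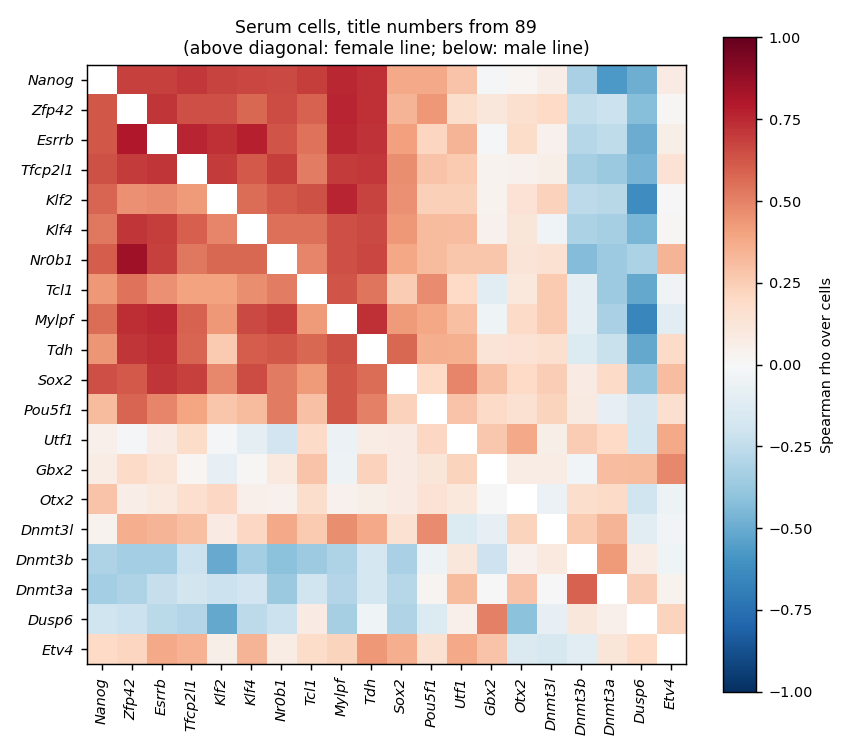
Spearman's rho between pairs of genes across serum cells numbered from 89 (46 female cells above the diagonal, 39 male cells below), red positive and blue negative. Naive factors, Mylpf and Tdh form a red block in both lines; Dnmt3a, Dnmt3b and Dusp6 are blue against most of it, and Gbx2, Otx2 and Utf1 are pale.

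The lines themselves differed within serum, as 1 culture each and so without a test. Of 6139 genes at 10 FPKM or more in the higher line and detected in at least 50% of its cells, 1.53% were at least 2-fold higher in the female line and 2% in the male line. Female cells held more of the Rhox homeobox genes, namely Rhox5 (592 against 91.6 FPKM), Rhox6 (63.5 against 4.4 FPKM) and Rhox9 (53.4 against 5.86 FPKM), of the actin-binding gene Tagln (103.3 against 11.8 FPKM) and of the X-linked ubiquitin ligase adaptor Klhl13 (101.7 against 19.8 FPKM). Male cells held Eif2s3y, on the Y (31.8 against 0.0692 FPKM), and more of the hypoxia-responsive genes Egln3 (13.8 against 0.690 FPKM), Ankrd37 (36.6 against 5.8 FPKM) and Slc16a3, a lactate exporter (60.8 against 10.8 FPKM). Slc16a3 averaged 9.81 FPKM in the lower and 77.8 FPKM in the higher male run, so that the male excess lay in 1 run. Xist, the RNA that silences an X chromosome, averaged 5.4 FPKM in female and 0.433 FPKM in male serum cells.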

How the data were processed

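The labels' protocols name SMART-seq2 followed by Tn5 tagmentation of each single cell. The authors deposited FPKM per gene and cell, made with STAR 2.4.1, Cufflinks and Cuffnorm 2.2.1 on mm10, per the submitters' processing notes. Depth is unknown and no count test was possible. Symbols came from GENCODE vM21 (GRCm38), with 42548 of 43628 IDs matched. The replicate was the culture, taken as all cells of 1 line in 1 state. limma 3.58.1 (R 4.3.3) tested log2(mean FPKM + 1) of 15504 genes averaging at least 1 FPKM over 8 cultures in 1 fit with an intensity trend. Spread, as log2(CV²) less a lowess curve of span 0.3, was tested without a trend. Python 3.11.15 with scipy 1.17.1 did the rest. On simulated data the level test found 57.5% of changes of log2 size 3, with 5 unchanged genes called, and 0 of size 1.5. The 4-culture spread test found 100% of changes of size 2.97, with 9 unchanged genes called. In that spread simulation, cultures of a state differed only by the sampling of cells. Its 100% therefore does not give the power for real cultures, which also differ from each other.

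Cultures of 1 line pair the states. The female minus male deviation of serum correlated with that of 2i at 0.0917, of Epi at 0.0645 and of motor neuron cultures at 0.138, over 15504 genes. Named were the listed genes, up to 5 called genes each way per comparison with the largest difference, the genes highest in serum, the extremes of spread, the 5 genes each way between lines, and the 5 most like each marker and Nanog. Others were picked after their values were seen, and the members and lists were chosen with earlier results of these data known. Of 25 lists (261 genes) 1 gene was not found. Duplicate libraries were looked for, and the closest pair of serum cells correlated at 0.837. The alternatives changed the pseudocount, filters, scaling, averaging, cultures, pairing and title-number runs. No doublet caller was run. Some genes called or ranked by these rules are not reported here.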

Additional observations from a re-analysis of the deposited data

Results flagged for a closer look

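For 3 listed genes the serum minus 2i difference in log2(mean FPKM + 1) was at least 1 in opposite directions in the lines, as a comparison of 1 culture each, and the difference between the lines was not tested. The imprinted growth-restraining RNA gene H19 gave 2.31 in the female and -3.54 in the male line. Its means were 2.69 and 33.6 FPKM in female and male 2i cells and 17.3 and 1.99 FPKM in serum, where 1 female cell reached 871 FPKM. Igf2, the growth factor gene imprinted beside it, gave 1.09 and -1.77, from 0.482 and 6.59 FPKM in 2i and 2.16 and 1.22 FPKM in serum, with a highest female serum cell of 73.9 FPKM. The epithelial keratin gene Krt18 gave 2.77 and -1.61, from 1.83 and 45.6 FPKM in 2i and 18.3 and 14.3 FPKM in serum. All 3 were higher in the male than in the female 2i culture, and higher in the female than in the male serum culture. Means of H19 and Igf2 without their highest female serum cells were not computed.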

How the results depend on the processing

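Calls of level against 2i (3) became 0 with a pseudocount of 0.1, 20 without a filter, 224 with mean log values, 12 with upper-quartile scaling, 0 with line as a replicate block, 0 with only the 4 cultures compared, 46 without Epi, 11 in the higher run of title numbers, 23 and 29 in serum cells up to 88 and from 89, and 0 to 38 leaving out single cultures. Against Epi (6) they became 2 with the block, 0 with only 4 cultures, 1 in the lower run and 0 to 337 leaving out cultures. Against motor neuron cultures (5088) they became 3072 without a filter, 3137 rescaled, 2876 with only 4 cultures and 1647 to 5576 leaving out cultures. Spread calls against 2i (6) became 1 at 5 FPKM, 10 rescaled, 17 with only 4 cultures, 3 and 0 in the lower and higher runs, 3 and 2 up to 88 and from 89, 1 within runs and 0 to 20 leaving out cultures; against Epi (0) 1 with the SD, 1 rescaled, 1 with the block, 2 in the higher run, 2 from 89, 1 within runs and 0 to 38. Over the 4 ES cultures the percent of genes called (0.946) became 4.67 with the block, 0.0585 up to 88 and 0.0193 to 2.14 leaving out cultures. Genes highest in serum (7) became 1 at 5 FPKM, 4 with mean log values, 14 with upper-quartile scaling, 14 and 17 in the lower and higher runs, 35 and 14 up to 88 and from 89, and 9 to 66 leaving out cultures. Against Epi without single cultures, 16 and 17 were called without the female and male motor neuron culture. Otx2 with Polr2e gave a rho of 0.324 from 89. Signs turned for Zfp42 against 2i (0.37 up to 88), Etv5 against 2i (-0.042 with mean log values, -0.17 from 89, -0.27 without male serum, the lowest of a range to 0.55 over left-out cultures), the spread of Mob1a (0.15 from 89), mt-Rnr2 (0.62 up to 88) and Gm42418 (0.044 within runs, 3.505 up to 88), Pou5f1 against Epi (0.30 with mean log values, 0.0895 upper-quartile, 0.0455 lower run, 0.18 up to 88, 0.12 without female serum, and 0.83 without female Epi, the highest of a range from -0.98 over left-out cultures), Cldn6 against Epi (0.31 with mean log values) and Etv4 against Epi (-0.061 up to 88). The cause was not tested. Of the other values of single genes, 936 kept their direction and their side of the threshold, 17 newly passed it, 5 without a test moved and the others fell short. The depth of each cell is unknown, and 4 residual degrees of freedom (2 for the fits over 4 cultures) limit the tests.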
